A study of Homo sapiens with 6 samples.

Results

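The circadian clock genes described here are PER1, PER2, PER3, CRY1, CRY2, CLOCK, NR1D1, NR1D2, TEF and NFIL3, chosen by gene symbol in the deposited tables: 10 of 46427 genes and 61 of 170322 transcripts. RNA was sequenced from 6 samples of MDA-MB-231/RR, a radioresistant form of MDA-MB-231, a human triple-negative breast cancer line. The series comprised 3 samples given ortho-topolin riboside (oTR, a cytokinin-type adenosine derivative) together with melatonin and 3 samples labelled only as control, with the question of how their combination changes gene expression. Both groups were the same line in the same serum-containing medium, harvested with trypsin near confluency. None of the sources used here states the doses, exposure times, vehicle, time of day at harvest or any synchronisation of the cultures, and no group analysed here received 1 compound alone. The labels do not tell whether replicate samples were grown apart, so the p-values reflect a sample-to-sample spread that may be only technical.

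In mammalian cells CLOCK pairs with BMAL1 (ARNTL in the files) and binds E-box sequences to drive transcription of the PER and CRY genes, whose protein products return to the nucleus and block CLOCK and BMAL1. A second loop runs through the nuclear receptors REV-ERB alpha (NR1D1) and REV-ERB beta (NR1D2), which are themselves E-box targets and repress genes with ROR elements, BMAL1 and NFIL3 among them. TEF, an activator, and NFIL3 (E4BP4), a repressor, compete for D-box sequences, which lie in several PER genes. Transcript levels of most of these genes cycle over the day in tissues and in synchronised cultures, and cycling is damped or lost in many tumour lines.

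Of the 10 clock genes, 8 passed the test between the groups: CRY2, CLOCK and NFIL3 were higher with oTR and melatonin, and PER2, PER3, CRY1, NR1D1 and TEF were lower. PER1 and NR1D2 did not pass. All 10 passed the filter on low counts, so no clock gene was lost before testing. The background was high, since 33.7% of the 16557 genes tested passed in either direction, 16.6% as higher and 17.1% as lower. That near-even split, 2743 higher and 2835 lower, depends on the scaling: it was 3816 and 2065 with library size alone, 2180 and 3302 with the length trend removed, 4516 and 1339 on log2(TPM + 1) and 4490 and 1338 on log2(TPM + 0.1). The clock genes under the same settings were 3 higher and 4 lower, 1 and 5, 3 and 2, and 3 and 2. For the same 8 clock genes the 3 libraries of one group lay wholly above or below the 3 of the other, as did 47.4% of all genes tested. The changes were small: no clock gene reached 1 on the log2 scale, the called ones ran from 0.25 to 0.77 in size, and the median log2 fold change was -0.16, against 0.002 over all genes tested. The median size of the change was 0.31 among the clock genes and 0.19 over all genes. The clock genes were chosen with earlier results of these data known, so these figures describe them and are no test against all genes.

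**Figure D1:**
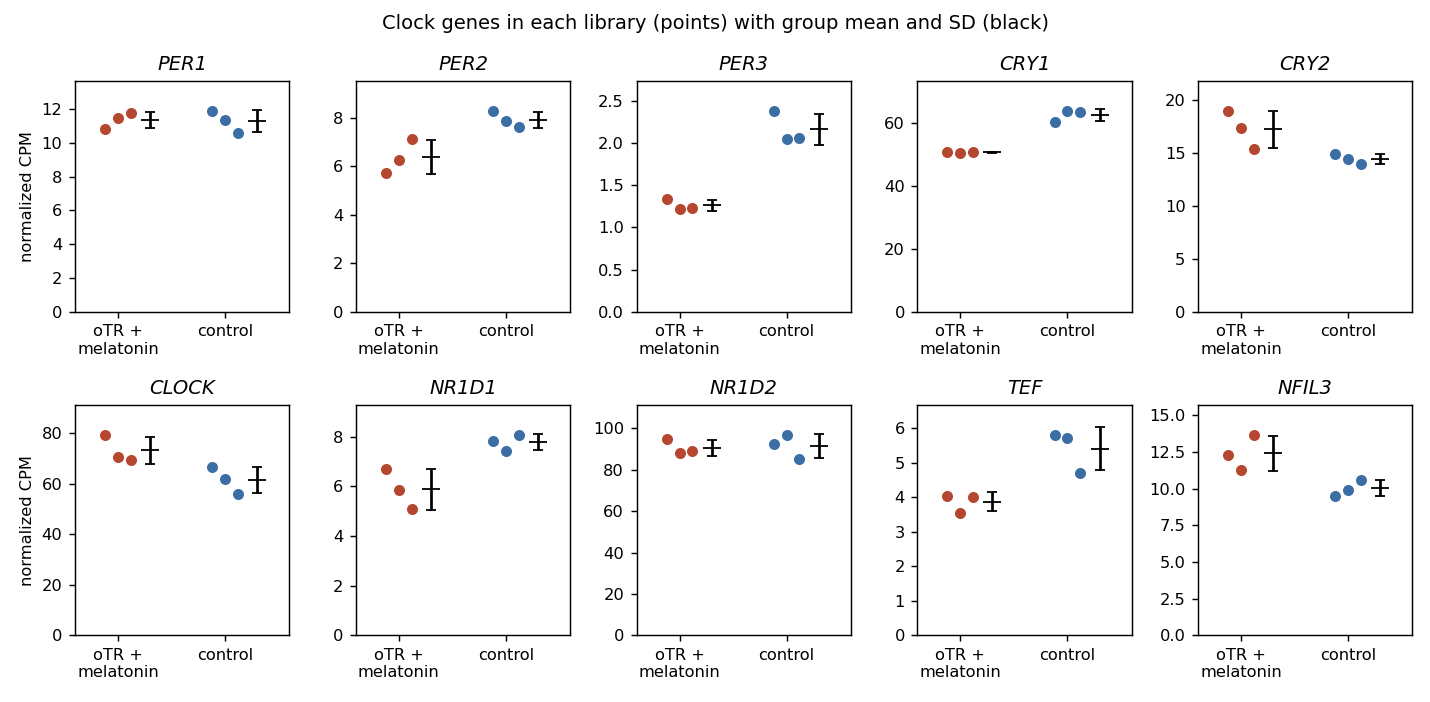
Normalized CPM (y axis, starting at 0) of each clock gene in the 3 libraries with oTR and melatonin (left in each panel) and the 3 control libraries (right), with the group mean and SD in black. The groups are apart for 8 genes and overlap for PER1 and NR1D2. As a ratio, though not in CPM, PER3 has the widest gap, 1.26 against 2.16 CPM on average.

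Levels are given as CPM, counts scaled to the library total and normalized with relative log expression factors. A log2 fold change is oTR and melatonin over control, with its standard error (SE), and an adjusted p is that of edgeR's quasi-likelihood test with Benjamini-Hochberg adjustment over all genes tested (threshold 0.05). Library totals were 50569611 to 72204161 estimated counts with oTR and melatonin and 56521572 to 72309015 in controls. Libraries of the same group differed pairwise beyond counting error (chi-square over its degrees of freedom, 11.6 to 19.5). On the leading principal component, which held 41.0% of the variance, the groups were apart. VIM, a mesenchymal marker of the line, averaged 2223 CPM with oTR and melatonin and 2060 CPM in controls (adjusted p = 0.0603, not called). The summed CPM of 7 markers of the line was 5783 to 5901 and 5459 to 5633 in the same order. These markers did not move together: 1 of the 7 was called higher (EGFR, 0.26) and 2 lower (CAV1, -0.22, and SPARC, -0.31). The luminal markers ESR1 and CDH1 stayed below 0.1 CPM and PGR was at 0, while the whole luminal list, led by keratins, summed to 879 to 968 CPM with oTR and melatonin and 954 to 1042 CPM in controls, with 1 of 6 tested genes higher and 3 lower. In that list ERBB2 averaged 70.0 CPM with oTR and melatonin and 65.3 CPM in controls, GATA3 3.97 and 5.61, and FOXA1 4.98 and 3.20. PTPRC (immune) and COL1A2 and DCN (fibroblast) were at 0 in every library. Other fibroblast markers were detected: COL1A1 averaged 17.4 CPM with oTR and melatonin and 21.7 CPM in controls, and PDGFRB 6.24 and 6.52. The immune list summed to 21.9 to 28.3 CPM with oTR and melatonin and 25.2 to 27.1 CPM in controls, nearly all from CD68, with 0 of 1 tested gene called. The endothelial list summed to 2.38 to 2.99 against 2.08 to 2.30 CPM, with 0 of 4 called, and the fibroblast list to 22.6 to 24.6 against 26 to 30.4 CPM, with 1 of 2 lower. The part of these list differences in the clock results was not tested. In bulk RNA a change in the number of cells of a kind and a change in RNA per cell cannot be told apart.

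CLOCK, the DNA-binding partner of BMAL1 and a histone acetyltransferase, was measured at chr4:55427901-55547138 (GRCh38, minus strand). It had 79.4, 70.6 and 69.6 CPM in the libraries with oTR and melatonin, against 66.6, 61.9 and 56.1 CPM in control libraries. The lowest library with oTR and melatonin lay above the highest control, and CLOCK rose by a log2 fold change of 0.25 (SE 0.07, adjusted p = 0.0179), or 18.9%. The call was lost without oTR and melatonin replicate 1 (0.19, adjusted p = 0.0605), without control replicate 2 (0.25, 0.0507) or 3 (0.19, 0.0663), and with the length trend removed (0.10, 0.139). TMEM165, on the opposite strand, shares 25497 bases of the CLOCK span; it had a log2 fold change of 0.08 (adjusted p = 0.229), and none of the sources used here states whether the libraries keep strand.

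The 3 PER genes, which encode the period proteins that carry CRY proteins into the repressor complex, did not move together. PER1 had 10.8, 11.5 and 11.8 CPM with oTR and melatonin and 11.9, 11.4 and 10.6 CPM in controls. These ranges overlap almost fully, and the log2 fold change was 0.01 (SE 0.07, 95% interval -0.15 to 0.17, adjusted p = 0.925).

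PER2 had 5.74, 6.27 and 7.15 CPM with oTR and melatonin, against 8.28, 7.89 and 7.62 CPM in controls. All 3 libraries with the compounds lay below all 3 controls, though replicate 3 of the compounds came close to control replicate 3. PER2 fell by a log2 fold change of -0.31 (SE 0.10, adjusted p = 0.0295), a decrease to 0.81 times the control level. This call rested on most libraries being present: it was lost without oTR and melatonin replicate 1 (-0.24, adjusted p = 0.100) or 2 (-0.29, 0.0805) and without control replicate 1 (-0.28, 0.0916) or 2 (-0.31, 0.0647). It was also lost with library size alone (-0.25, 0.0651) and on log2(TPM + 1) (-0.13, 0.258) and log2(TPM + 0.1) (-0.18, 0.296).

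PER3 had the largest change of the 10 genes and the lowest level. It had 1.34, 1.22 and 1.23 CPM with oTR and melatonin, against 2.38, 2.05 and 2.06 CPM in controls. Every library with the compounds was well below every control, and PER3 fell by a log2 fold change of -0.77 (SE 0.15, adjusted p = 0.00251), to 0.58 times the control level. The call held in all 18 alternatives, of which the setting without the 20 top genes in library sizes only repeats the reported test. On log2(TPM + 1), where a low gene is compressed, the value was -0.25 (adjusted p = 0.0216).

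The start regions of the 3 PER genes are shown because they differ in the clock elements they hold. Each window runs from 250 bases before to 50 after a RefSeq gene start (GRCh38.p14), 5′ to 3′ on the gene's strand. Letters in capitals match an E-box (CACGTG), an E-box-like sequence (CACGTT, or AACGTG on the other strand), a D-box (TTATGTAA or TTACGTAA) or a ROR element (ANTAGGTCA). PER1 at chr17:8152355-8152654 (minus strand) has an E-box at -173. PER2 at chr2:238288561-238288860 (minus strand) has an E-box-like match at -197 and a D-box of the TTACGTAA form at -3. PER3 at chr1:7784041-7784340 (plus strand) has a D-box at -177 and no E-box of either form.
PER1: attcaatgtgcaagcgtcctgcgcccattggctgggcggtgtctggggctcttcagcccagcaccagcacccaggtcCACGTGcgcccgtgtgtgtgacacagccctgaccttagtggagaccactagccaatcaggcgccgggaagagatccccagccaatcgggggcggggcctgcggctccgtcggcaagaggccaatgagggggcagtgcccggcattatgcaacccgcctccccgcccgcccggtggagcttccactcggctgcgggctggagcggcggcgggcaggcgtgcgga
PER2: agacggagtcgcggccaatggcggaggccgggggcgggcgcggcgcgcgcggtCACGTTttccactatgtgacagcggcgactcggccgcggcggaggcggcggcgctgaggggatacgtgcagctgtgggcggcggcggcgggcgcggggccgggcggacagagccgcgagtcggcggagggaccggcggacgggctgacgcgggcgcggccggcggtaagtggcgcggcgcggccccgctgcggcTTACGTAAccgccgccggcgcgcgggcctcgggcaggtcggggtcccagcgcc
PER3: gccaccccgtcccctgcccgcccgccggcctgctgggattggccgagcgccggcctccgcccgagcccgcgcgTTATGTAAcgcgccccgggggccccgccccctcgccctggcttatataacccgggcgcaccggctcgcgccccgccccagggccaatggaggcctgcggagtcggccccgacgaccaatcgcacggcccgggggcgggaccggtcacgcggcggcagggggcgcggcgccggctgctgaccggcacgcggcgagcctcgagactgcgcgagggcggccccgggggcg

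CRY1 and CRY2 encode the cryptochromes, the main repressors of CLOCK and BMAL1, and their transcripts moved in opposite directions. CRY1 had 50.5, 50.3 and 50.8 CPM with oTR and melatonin, against 60.2, 63.6 and 63.3 CPM in controls. The 3 libraries with the compounds were within 1 CPM of each other and all below the controls. CRY1 fell by a log2 fold change of -0.30 (SE 0.05, adjusted p = 0.000586), to 0.81 times the control level. The call held in all 18 alternatives, the repeat of the reported test included.

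CRY2 had 19.0, 17.4 and 15.4 CPM with oTR and melatonin, against 14.9, 14.4 and 14.0 CPM in controls. Replicate 3 of the compounds lay just above the highest control. CRY2 rose by a log2 fold change of 0.25 (SE 0.08, adjusted p = 0.0309), the largest adjusted p of the 8 calls. The call was lost without oTR and melatonin replicate 1 (0.18, adjusted p = 0.107) or 2 (0.25, 0.0742), without control replicate 1 (0.28, 0.0573), 2 (0.25, 0.0763) or 3 (0.23, 0.0993), with the length trend removed (0.19, 0.0687), and on unfiltered log2(TPM + 1) (0.34, 0.0643).

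The CRY1 window at chr12:107093500-107093799 (minus strand) is shown for the gene with the smallest p; its capitals mark an E-box-like match on the other strand at -89.
CRY1: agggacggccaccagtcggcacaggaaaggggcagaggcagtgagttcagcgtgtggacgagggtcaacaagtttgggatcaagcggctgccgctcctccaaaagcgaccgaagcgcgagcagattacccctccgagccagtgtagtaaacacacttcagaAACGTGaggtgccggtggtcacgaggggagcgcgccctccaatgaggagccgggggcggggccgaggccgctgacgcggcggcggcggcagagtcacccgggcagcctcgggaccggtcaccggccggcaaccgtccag

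NR1D1 and NR1D2, the heme-binding REV-ERB repressors, differed in level and in response. NR1D1 had 6.72, 5.86 and 5.08 CPM with oTR and melatonin, against 7.81, 7.43 and 8.08 CPM in controls. The groups were apart, and NR1D1 fell by a log2 fold change of -0.41 (SE 0.11, adjusted p = 0.0130), to 0.75 times the control level. The call was lost without oTR and melatonin replicate 3 (-0.30, adjusted p = 0.0503) and on log2(TPM + 1) (-0.24, 0.111) and log2(TPM + 0.1) (-0.28, 0.107). THRA, on the opposite strand with 1075 shared bases, had a log2 fold change of -0.13 (adjusted p = 0.128).

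NR1D2 had 94.8, 87.9 and 89.1 CPM with oTR and melatonin and 92.6, 96.9 and 85.3 CPM in controls. The groups overlap, and the log2 fold change was -0.02 (SE 0.06, 95% interval -0.14 to 0.11, adjusted p = 0.849). The opposite-strand gene NKIRAS1, which shares 1277 bases with NR1D2, rose by 0.18 (SE 0.05, adjusted p = 0.0119).

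The NR1D1 window at chr17:40100540-40100839 (minus strand) holds an E-box-like match on the other strand at -168, in capitals. NR1D2 has a pair of RefSeq windows: the one at its main transcript's start held none of the motifs set in capitals here, and the other, at chr3:23945871-23946170, held E-boxes at -155 and -105 and a D-box at -194.
NR1D1: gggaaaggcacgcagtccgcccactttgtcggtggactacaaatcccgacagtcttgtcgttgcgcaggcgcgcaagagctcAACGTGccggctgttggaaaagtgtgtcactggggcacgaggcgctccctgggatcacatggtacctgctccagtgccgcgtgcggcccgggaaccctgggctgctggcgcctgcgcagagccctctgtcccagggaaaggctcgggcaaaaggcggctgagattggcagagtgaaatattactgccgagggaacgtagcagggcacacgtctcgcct

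TEF and NFIL3, the activator and the repressor that share the D-box, also moved in opposite directions. TEF had 4.05, 3.56 and 4.0 CPM with oTR and melatonin, against 5.82, 5.72 and 4.71 CPM in controls. Control replicate 3 was the lowest control but still above every library with the compounds. TEF fell by a log2 fold change of -0.48 (SE 0.11, adjusted p = 0.00795), to 0.72 times the control level. The call was kept without any 1 library and lost on log2(TPM + 1) (-0.24, adjusted p = 0.0776) and log2(TPM + 0.1) (-0.33, 0.0935).

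NFIL3 had 12.3, 11.3 and 13.7 CPM with oTR and melatonin, against 9.53, 9.94 and 10.6 CPM in controls. The lowest library with the compounds lay above the highest control. NFIL3 rose by a log2 fold change of 0.31 (SE 0.09, adjusted p = 0.0166), or 24.1%, the largest rise of the 10 genes. The call was lost without oTR and melatonin replicate 3 (0.24, adjusted p = 0.0714) and without control replicate 1 (0.27, 0.0672) or 2 (0.30, 0.0507).

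The windows of TEF at chr22:41381692-41381991 (plus strand) and NFIL3 at chr9:91423783-91424082 (minus strand) are shown for the opposed D-box pair. The capitals mark an E-box at -193 in TEF and, in NFIL3, a ROR element on the other strand at -9.
TEF: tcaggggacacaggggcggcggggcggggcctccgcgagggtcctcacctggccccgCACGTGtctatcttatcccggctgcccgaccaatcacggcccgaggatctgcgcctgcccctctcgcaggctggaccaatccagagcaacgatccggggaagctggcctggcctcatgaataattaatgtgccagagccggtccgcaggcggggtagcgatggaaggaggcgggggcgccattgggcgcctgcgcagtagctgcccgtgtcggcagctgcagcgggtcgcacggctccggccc
NFIL3: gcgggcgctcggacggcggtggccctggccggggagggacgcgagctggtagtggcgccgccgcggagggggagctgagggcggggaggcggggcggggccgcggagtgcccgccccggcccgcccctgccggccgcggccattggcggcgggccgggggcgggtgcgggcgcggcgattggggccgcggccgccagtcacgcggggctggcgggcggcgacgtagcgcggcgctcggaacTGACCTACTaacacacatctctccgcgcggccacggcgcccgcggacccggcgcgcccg

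RefSeq held 16 such windows for the 10 clock genes and 35116 over all genes. The E-box was in 4 of the 16 clock windows (25%; PER1, NR1D2 and both TEF windows) and in 7.26% of all windows. The E-box-like sequence was in 5 (31.2%; PER2, CRY1, CRY2, CLOCK and NR1D1) and in 5.34% of all. The D-box TTATGTAA was in 2 (12.5%; PER3 and NR1D2) against 0.886% of all, and TTACGTAA in 1 (6.25%; PER2) against 0.125%. The ROR element was in 1 (6.25%; NFIL3) against 0.490%, and its core AGGTCA, which overlaps it, in 4 (25%) against 13.8%. The cyclic AMP element TGACGTCA was in 0 against 1.85%, and its shorter form TGACG in 8 (50%) against 24.6%. Motifs were searched on both strands. Full E-boxes were in PER1 and NR1D2, which did not pass, and in TEF, which fell. E-box-like matches were in CRY1, PER2 and NR1D1, which fell, and in CRY2 and CLOCK, which rose. Some of these matches lie at the start of a lesser transcript. That transcript's share of the gene's TPM was 0.307% for NR1D2, 9.51% for CLOCK and 33.9% for PER1. The TEF window not shown above, at chr22:41367205-41367504, covers the start of NM_001145398, which was at 0 in every library. The CLOCK window at the start of its leading transcript, NM_004898, held no E-box of either form. The G and C content of the clock windows was mostly high: the median over all windows was 58.7%. Only a CRY2 window, at 46.3%, lay below that median, and the other clock windows ran from 61.0% to 83.0%. The motif shares were not compared with windows of like G and C content. A match is a description of the letters and not a bound site.

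**Figure D2:**
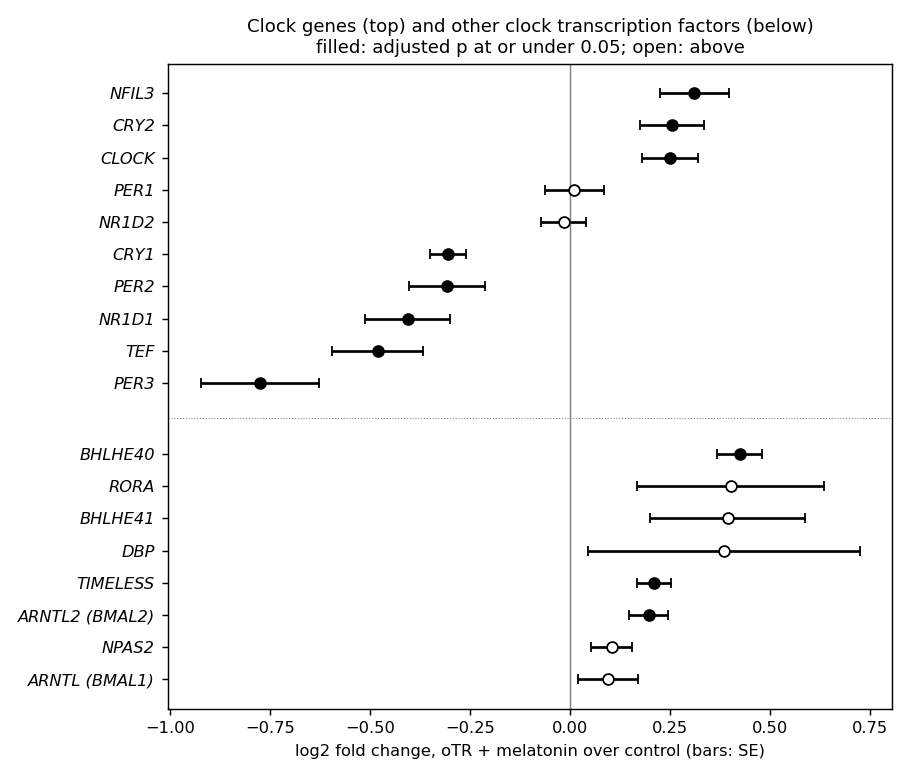
Log2 fold change of oTR and melatonin over control (x axis) with its SE for the 10 clock genes (top) and 8 other clock factors (below). TIMELESS, among these 8, is not a transcription factor. Filled points have an adjusted p at or under 0.05. The called clock genes run from -0.77 (PER3) to 0.31 (NFIL3), and all 8 of the other factors lie above 0, with 3 of them called.

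Ratios between related genes within a library do not depend on its size factor. They recombine the levels of the same genes, so they restate the changes of the single genes and are not separate evidence. The NFIL3 to TEF ratio, repressor over activator at the D-box, was 3.04, 3.17 and 3.42 with oTR and melatonin, against 1.64, 1.74 and 2.26 in controls. The log2 ratio was 0.79 higher, 1.72-fold. The CRY1 to CRY2 ratio was 2.66, 2.90 and 3.29 with oTR and melatonin, against 4.03, 4.42 and 4.53 in controls, a log2 difference of -0.56. The PER1 to PER3 ratio was 8.08, 9.41 and 9.60 with oTR and melatonin, against 5.00, 5.55 and 5.14 in controls, a log2 difference of 0.79. The groups did not overlap in any of these 3 ratios. Most of the paired genes were already apart on their own, as were 47.4% of all genes tested. No such share was computed over other gene pairs. The PER1 to PER2 ratio was 0.33 higher on the log2 scale and the PER2 to PER3 ratio 0.46 higher, again without overlap. The NR1D1 to NR1D2 ratio was 0.40 lower on the log2 scale (-0.40) and did not overlap either. Each of these 6 gave p = 0.1 in a two-sided exact permutation test, the smallest that 3 against 3 libraries allow (Benjamini-Hochberg adjusted p = 0.117 over 7 ratios). The CLOCK to BMAL1 (ARNTL) ratio was 7.59, 7.33 and 6.65 with oTR and melatonin, against 7.41, 6.37 and 5.67 in controls; these overlap, with a log2 difference of 0.16 (exact permutation p = 0.3).

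**Figure D3:**
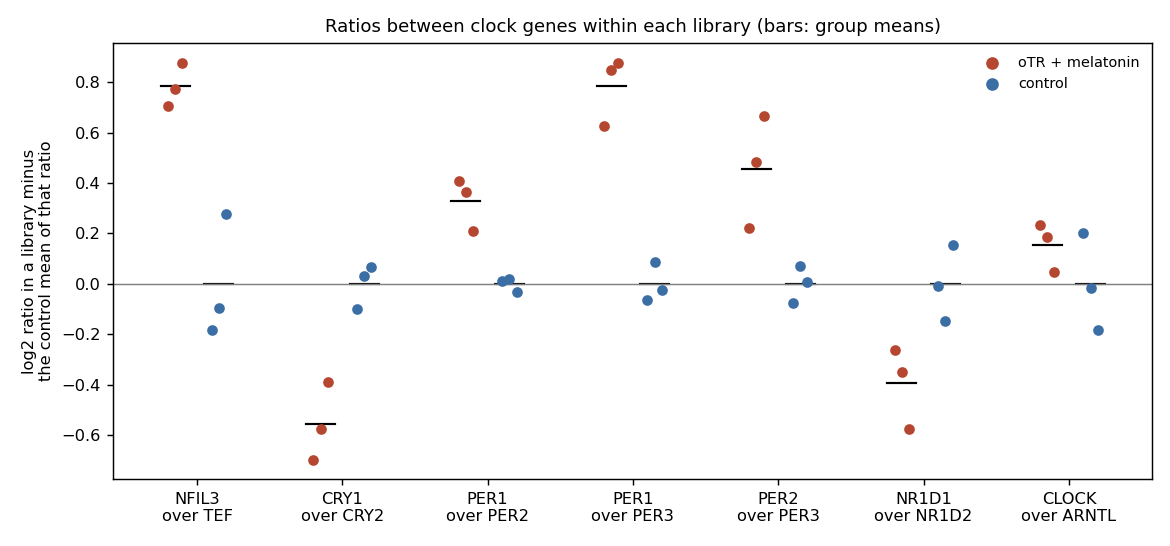
Log2 ratio of each gene pair in each library, shown as the difference from the control mean of that ratio (y axis), for libraries with oTR and melatonin (left in each pair) and controls (right); bars are group means. The NFIL3 to TEF and PER1 to PER3 ratios lie 0.79 above the control mean, CRY1 to CRY2 lies 0.56 below it, and only CLOCK to ARNTL overlaps.

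Levels per length (TPM, which divides by transcript length) put the genes in nearly the same order in both groups. With oTR and melatonin, NR1D2 (40.3 ± 2.26 TPM) and CRY1 (38.8 ± 0.87) came first and their ranges overlapped (SD, n = 3). They were followed, without overlap, by CLOCK (17.7 ± 1.5), NFIL3 (14.0 ± 1.24) and CRY2 (9.70 ± 1.18). PER1 (5.66 ± 0.13) and NR1D1 (5.19 ± 0.81) overlapped, as did PER2 (2.33 ± 0.22) and TEF (2.05 ± 0.15), and PER3 (0.44 ± 0.04) was last. In controls CRY1 (44.1 ± 1.34 TPM) lay above NR1D2 (37.2 ± 2.99), and NR1D1 (6.26 ± 0.18) above PER1 (5.19 ± 0.40), each pair without overlap. The other control levels were 13.4 ± 0.74 TPM for CLOCK, 10.3 ± 0.27 for NFIL3, 7.41 ± 0.38 for CRY2, 2.64 ± 0.15 for PER2, 2.62 ± 0.34 for TEF and 0.71 ± 0.09 for PER3, of which only PER2 and TEF overlapped. The 2 order changes between the groups were CRY1 with NR1D2 and PER1 with NR1D1. Each sets a gene that fell in the test on counts beside a gene that did not pass it. On TPM, NR1D2 and PER1 were also higher on average with oTR and melatonin, and the fall of NR1D1 was not called. The most abundant clock genes were thus a REV-ERB and a cryptochrome, and the least abundant was PER3.

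No clock transcript was called on its own. Of the 61 clock transcripts 19 were at 0 in all libraries and 29 were tested; 0 were called by edgeR's quasi-likelihood test and 2 had an unadjusted p under 0.05. Over all 65252 transcripts tested, 1 was called (0.00153%) and 8.56% had an unadjusted p under 0.05. NM_004075, which held 82.8% of CRY1's TPM over the 6 libraries, had a log2 fold change of -0.32 (SE 0.11, unadjusted p = 0.0251, adjusted p = 0.471), close to the gene's own value. XM_005256690, a minor PER1 transcript at 0 to 0.0965 CPM with oTR and melatonin and 0.585 to 2.84 CPM in controls, was the other (unadjusted p = 0.0129, adjusted p = 0.370).

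Most clock genes had 1 leading transcript, since 6 of the 10 had a single one with at least 10% of the gene's TPM. TEF and NR1D1 were assigned to 1 transcript throughout (100% of the TPM), and CRY2, NR1D2, NFIL3 and CRY1 had 97.5%, 93.2%, 89.3% and 82.8% in theirs. For PER2, CLOCK and NFIL3 the assignment jumped between libraries of the same group. NM_022817 held 74.4%, 22.6% and 79.6% of PER2's TPM with oTR and melatonin, against 100%, 100% and 76.7% in controls. NM_004898 held 58.1%, 36.2% and 57% of CLOCK's TPM with oTR and melatonin, against 81.5%, 66.4% and 32.4% in controls. NFIL3's NM_005384 held 100%, 99.8% and 99.8% with oTR and melatonin, against 32.1%, 100% and 91.1% in controls. The low value is a single control library, replicate 1. PER3's TPM was spread over XM_024450612, NM_001289861 and NM_001377275, whose shares over the 6 libraries were 28.7%, 39.9% and 15.7%.

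PER1 counts were split between transcripts with distant starts. XM_005256689, which begins upstream at chr17 position 8156360, held 67.7%, 82.9% and 50.5% of PER1's TPM with oTR and melatonin, against 42.9%, 54.2% and 44.8% in controls. NM_002616, whose start the PER1 window above covers, held 29.7%, 16.8% and 47.1% with oTR and melatonin, against 47.2%, 16.5% and 47.1% in controls. Both sets of shares overlap between the groups. Transcript usage was tested for 6 clock genes with diffSplice (limma, Simes): 0 were called, against 3.01% of 9961 genes, and 1 (PER2) had an unadjusted p under 0.05 (adjusted p = 0.228). On simulated data this test made more false calls than its threshold allows, so the background share may be too high. The F-test of diffSplice, chosen after seeing the data, gave PER2 an adjusted p of 0.258 and PER1 one of 0.407, and diffSpliceDGE of edgeR called 0 as well, with 0.154 for PER1.

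**Figure D4:**
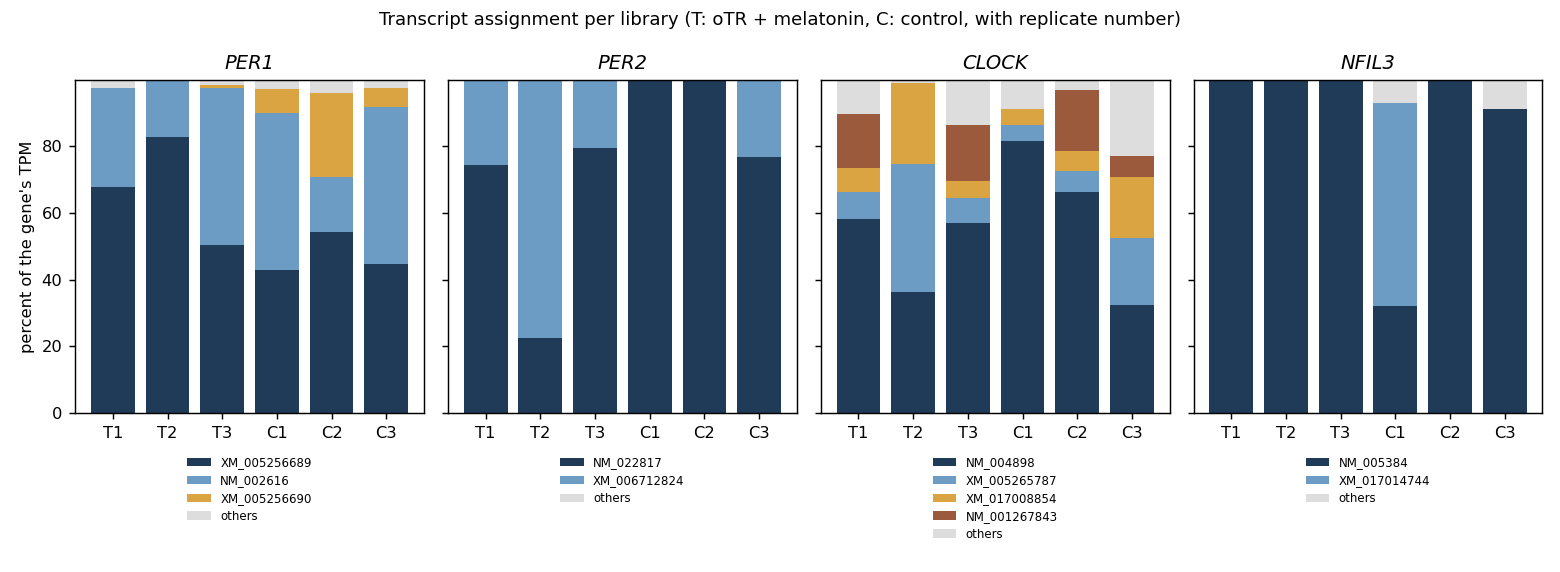
Percent of each gene's TPM (y axis) assigned to each transcript with at least 5% of it, for PER1, PER2, CLOCK and NFIL3, in the 3 libraries with oTR and melatonin (T1 to T3, left) and the 3 controls (C1 to C3, right). Shares vary among libraries of the same group; NM_022817, for example, holds 22.6% to 79.6% of PER2 with the compounds and 76.7% to 100% in controls.

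The partners and rivals of the clock genes were read from lists of 77 other genes, of which 66 were tested and 28 called, 21 higher and 7 lower, beside the 16.6% and 17.1% of all genes tested. The split moved to 26 and 5 with library size alone, 16 and 12 with the length trend removed, and 30 and 4 on log2(TPM + 1) and on log2(TPM + 0.1). Among 12 other clock transcription factors and related genes 8 were tested, of which 3 rose, none fell and 5 did not pass. BHLHE40 (DEC1), a repressor that binds E-boxes, had 73.4, 68.7 and 77.9 CPM with oTR and melatonin, against 56.9, 55.0 and 52.2 CPM in controls, and rose by 0.42 (SE 0.06, adjusted p = 0.000319). TIMELESS, a replication fork protein related to the fly clock gene, rose by 0.21 (adjusted p = 0.00354), and ARNTL2 (BMAL2), a BMAL1 paralog, by 0.20 (adjusted p = 0.0106). With the length trend removed both lost the call, at 0.12 (adjusted p = 0.0568) for TIMELESS and 0.07 (0.237) for ARNTL2.

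BMAL1 itself (ARNTL), a REV-ERB target, had 10.5, 9.64 and 10.5 CPM with oTR and melatonin and 8.99, 9.72 and 9.89 CPM in controls, a log2 fold change of 0.10 (SE 0.08, adjusted p = 0.371). NPAS2, which can stand in for CLOCK, had 0.10 (adjusted p = 0.147), but passed with library size alone (0.16, 0.0338) and on the filtered TPM scales (0.23 and 0.24). RORA, an activator at ROR elements, had 0.40 (SE 0.23, adjusted p = 0.215), and DBP, a D-box activator like TEF, 0.38 (SE 0.34, adjusted p = 0.420). BHLHE41 (DEC2) had 0.39 (SE 0.19, adjusted p = 0.142) and passed without oTR and melatonin replicate 2 (0.55, 0.0485). RORB, HLF and CIART had at most 9 estimated counts in any library and were not tested.

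Of 21 tested kinases, ubiquitin ligases, phosphatases and deacetylases of clock proteins, 7 rose and 1 fell, a share called near the 33.7% of all genes. PRKAA2, a catalytic subunit of AMPK that marks CRY1 for degradation in mouse cells, rose by 0.31 (adjusted p = 0.00561), and SIRT1, a deacetylase that acts on BMAL1 and PER2, by 0.31 (adjusted p = 0.00210). CSNK2B, the regulatory subunit of casein kinase 2, fell (-0.34, adjusted p = 0.000346). CSNK1D and CSNK1E, the PER kinases, did not pass, at -0.05 and -0.10. CSNK1D and CSNK1E were named after their values were seen, for their role. Of the 6 genes of the corepressor complex that REV-ERB recruits, 1 fell, 0 rose and 5 did not pass.

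Of 15 genes known as outputs of the clock in some tissues, 3 rose and 4 fell (over all genes, 16.6% and 17.1%). CDKN1A, the cell cycle inhibitor p21 and a REV-ERB target in mouse liver, rose by 0.86 (adjusted p = 2.64e-05), and KLF10, a zinc finger factor, by 0.41 (adjusted p = 0.000219). MYC, the growth-promoting factor, fell (-0.53, adjusted p = 3.22e-05). Of 12 genes induced by cyclic AMP and CREB, 6 rose and 0 fell, against 16.6% and 17.1% of all genes. They include NR4A2 (1.2, adjusted p = 0.000113), an orphan nuclear receptor, and FOS (1.06, adjusted p = 0.00462), an AP-1 factor, which lost its call on unfiltered log2(TPM + 1) (0.95, 0.0578); PER1, which has a known CREB response in other cells, did not pass. Of 10 tested genes induced by glucocorticoid, PER1 among them, 3 rose and 1 fell, a share called close to that of all genes (33.7%). PDK4, a pyruvate dehydrogenase kinase, rose by 1.10 (adjusted p = 0.000167), DUSP1, a phosphatase also in the cyclic AMP list, by 0.63 (adjusted p = 7.93e-05), and TFCP2L1, a transcription factor, fell (-0.96, adjusted p = 0.000106).

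The melatonin receptors were at or near 0. MTNR1A had 2 estimated counts in 1 control library and 0 in the other 5 libraries, and MTNR1B had 0 in all 6, which allows up to 0.0415 to 0.0593 CPM (3 counts per library, counting error only). GPR50, an orphan relative of these receptors, had at most 2 estimated counts. The synthesis genes ASMT and AANAT had at most 10 and 8. None of the 5 was tested.

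The genes most like the extremes were found by the root mean square difference of centred log2 CPM over the 6 libraries, among 12677 genes at 1 CPM or more in every library. For PER3, the largest fall, they were NEXN (0.0445), KCNQ3 (0.0698) and TXNIP (0.0706). NEXN averaged 13.8 CPM with oTR and melatonin and 23.0 CPM in controls, and TXNIP 50.6 and 83.3 CPM. For NFIL3, the largest rise, they were LINC00847 (0.0230), UBOX5 (0.0361) and ZBED5-AS1 (0.0377), with log2 fold changes of 0.30, 0.28 and 0.31.

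How firmly each clock gene is called differs. CRY1 and PER3 were called in all 18 alternatives, TEF and NFIL3 in 15, CLOCK and NR1D1 in 14, CRY2 in 11 and PER2 in 10. None of the 8 called genes changed direction in any of them. PER1 and NR1D2 were called in none, and both changed sign in some. The setting without the 20 top genes in library sizes returned the reported values for every clock gene, since relative log expression factors offset the library sizes. That setting could not lose a call or change a sign. It is counted among the 18 but is no test of firmness.

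**Figure D5:**
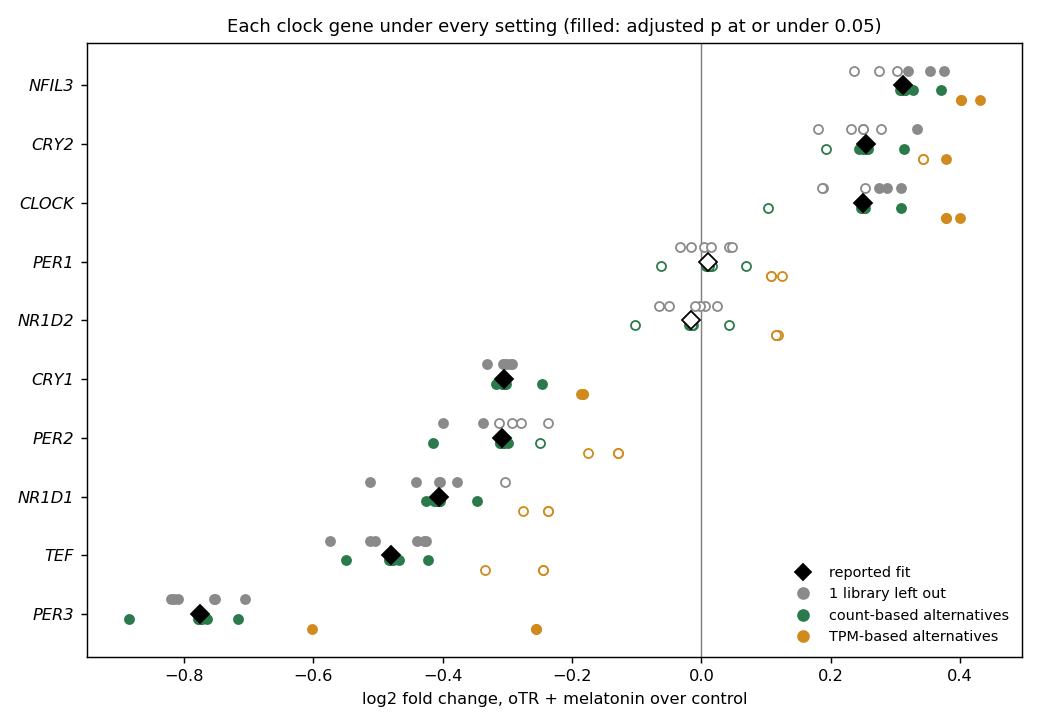
Log2 fold change of oTR and melatonin over control (x axis) of each clock gene in the reported test (diamonds) and in 18 alternatives (circles: 1 library left out, other count-based settings, settings on TPM); filled symbols have an adjusted p at or under 0.05. CRY1 and PER3 are filled throughout, and the 8 called genes stay on one side of 0. The setting without the 20 top genes in library sizes repeats the reported test.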

How the data were processed

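Total RNA of 6 MDA-MB-231/RR samples, 3 with oTR and melatonin and 3 controls, was sequenced; groups and replicate numbers come from the sample titles. Trimmomatic 0.38, HISAT2 2.1.0, Bowtie2, SAMtools 1.9, StringTie 2.1.3b and GRCh38 are named, without roles, per the submitters' processing notes. Columns prefixed Con were taken as control and those prefixed Mo as melatonin with oTR, a reading the labels leave implicit.

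The authors deposited, per the file headers, read counts, FPKM and TPM per gene and per transcript. The deposited counts are estimated counts: all 327227 low transcript counts (200 or less) equalled FPKM times length rounded up (tolerance 0.06), and each of the 46427 genes is the sum of its transcripts. Deposited FPKM served only this check. Reads shared between transcripts were therefore apportioned, and transcript values carry error that the test sees only as spread.

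Genes were kept with filterByExpr (minimum count 10) and tested with edgeR 4.0.16 (quasi-likelihood, relative log expression factors, R 4.3.3), adjusted over all genes tested. Transcripts were tested in the same way, and usage with diffSplice of limma 3.58.1. Ratios used exact permutation tests (scipy 1.17.1). The 18 alternatives for a gene were library size alone, TMM factors, limma-voom, DESeq2 1.42.0, no count filter, a minimum count of 50, library sizes without the 20 top genes, a replicate block, a length trend removed, limma on log2(TPM + 1) with and without filter and on log2(TPM + 0.1), and each of the 6 libraries left out. The tests were checked on simulated data, where the Simes usage test made more false calls than its threshold allows; its F-test was added for that reason. Promoter windows are from RefSeq (GRCh38.p14); gene spans are those of the deposited transcripts. Named genes of the other lists are, per list, the 2 largest rises and falls among called genes at 1 CPM or more. All tested other clock transcription factors and related genes and all 5 melatonin genes are also named. The clock genes and lists were chosen with earlier results of these data known. Some genes of these lists are counted but not reported by name here.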

Additional observations from a re-analysis of the deposited data

How the results depend on the processing

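The count of clock genes called was 8. It was 5 on log2(TPM + 1), 5 on log2(TPM + 0.1) and 4 on unfiltered log2(TPM + 1), and 4 to 6 with 1 library left out: 5 without oTR and melatonin replicate 1, 6 without replicate 2 or 3, and 5, 4 and 6 without control replicates 1, 2 and 3. Signs changed for the uncalled genes. PER1 was -0.0627 with the length trend removed, and -0.0337 (without control replicate 3) to 0.0470 (without control replicate 1) with 1 library left out. NR1D2 was 0.0421 with library size alone, 0.12 on each of the 3 TPM settings, and -0.0657 (without control replicate 3) to 0.0243 (without control replicate 2) with 1 library left out. The cause was not tested.

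The count over all genes was 5578, 4223 to 4820 with 1 library left out, and that of the other listed genes 28, 21 to 27. Settings on TPM moved the median over all genes, by 0.12 on log2(TPM + 0.1); relative to it PER2 was at -0.30, NR1D1 at -0.40 and TEF at -0.46. Relative to the median of log2(TPM + 1) they were at -0.22, -0.33 and -0.34, and unfiltered at -0.16, -0.27 and -0.27, smaller than the values reported. The labels do not say whether the replicate numbers pair the samples, and the values do not settle it. Correlations of deviations were 0.07, 0.0004 and -0.04 for numbers 1, 2 and 3, and -0.05 to 0.06 between unlike numbers. With the replicate block 6367 genes were called, 8 clock genes, 30 other listed genes and 0 clock transcripts, and the 7 ratios kept their values, each at p = 0.25, the smallest that an exact sign-flip test of 3 pairs can give. PER3, the clock gene with the fewest counts, has the widest standard error (0.15).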
